A study of Gallus gallus with 6 samples.

Results

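The dermal papilla of the chicken feather follicle was compared between the growth phase and the resting phase, with 1 RNA sequencing library for each phase. The members of the comparison were RefSeq transcript records, joined by record between both tables, with a record that a table did not list taken as 0. Records with at least 20 counts in either library were kept, which gave 5957 of the 10964 records in the tables of the series. Of those left out, 3633 were listed in a papilla below that minimum. At the edge of the rule, 76 records had exactly 20 counts in the higher library, such as CORO7 with 6 counts in growth and 20 at rest, and 96 records stopped at 19, such as NDE1 with 14 and 19.

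The series held 6 libraries of total RNA extracted with Trizol from parts of the feather follicle. The compared groups were the dermal papilla at growth phase and the dermal papilla at resting phase. A second use was made of the other 4 libraries, which gave each record a level in the feather epithelium and the mesenchymal pulp at growth phase and in follicles at regeneration 2 and 4 days after a wound. Breed, sex, age, genotype, the number of birds behind each library and the way the parts were separated were not given in the labels. With 1 library per group, no difference below has a replicate check, no test was made, and the spread between birds or dissections is unknown.

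The dermal papilla is a compact cluster of specialised mesenchymal cells at the base of the follicle. It signals to the epithelium around it, which divides and builds the feather while the mesenchymal pulp fills the feather core with vessels and connective tissue. A feather that is complete stays in the follicle through a resting phase, and loss or plucking of the feather starts a new cycle. Wnt, bone morphogenetic protein (BMP), fibroblast growth factor (FGF) and retinoic acid signals between mesenchyme and epithelium are known to control this cycle.

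The growth papilla table summed to 1425395 counts and the resting papilla table to 1393419, while the recovered library totals were 3410045 and 3350964. Totals of the 6 libraries ran from 3269376 to 6064791, with the epithelium and the pulp deepest, so counts printed for those libraries are not on the depth of the papillae. Levels called CPM below are on 1 depth for all 6 libraries, with TMM (trimmed mean of M values) factors applied to the totals. A record was counted as higher in a phase at 2-fold, on log2(CPM + 1), which understates the ratio of low records. Folds printed for single genes are ratios of scaled counts without that pseudocount, with exact 95% binomial intervals, and these cover counting error only. Where a library did not list a record, the fold is a lower bound taken at 3 counts.

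Mesenchyme markers were present in both papilla libraries, with little epithelial level. PRRX1, a homeobox factor of connective tissue mesenchyme, had 640 counts in growth, 913 at rest and 2 in the epithelium. COL1A2, a chain of type I collagen, had 9714 and 8017 counts in the papillae and 206 in the epithelium, and LUM, the collagen-binding proteoglycan lumican, had 5434 and 5337 against 108. These markers fit the label of both libraries as mesenchyme, while PDGFRA, NCAM1 and ALPL, mesenchyme markers of the same list, were listed in neither. PRRX1 and COL1A2 do not tell papilla from pulp. COL1A2 had 3291 CPM in the pulp, against 2858 CPM in growth and 2203 CPM at rest. PRRX1 had 112 CPM in the pulp, against 188 CPM and 251 CPM. Among 24 papilla mesenchyme markers, 21 had a record and 18 were compared. Of these, 2 were higher in growth (CRABP1 and VIM), 1 was higher at rest (SDC1) and 15 lay within 2-fold, with a median log2 ratio of 0.41. Over all records compared, 9.35% were higher in growth and 7.97% at rest. SDC1, the proteoglycan syndecan-1, is also made by epithelium and had 1490 counts (357 CPM) in the epithelium library. It was highest in the mesenchymal pulp, at 738 CPM, against 61.2 CPM in growth and 206 CPM at rest.

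Across all records compared, 557 (9.35%) were higher in the growth papilla and 475 (7.97%) were higher in the resting papilla, with a median log2 ratio of growth over rest of −0.02. The direction of this balance rested on the scaling. With library totals alone the counts became 441 and 627, the share of called records that were higher in growth moved from 54.0% to 41.3%, and the median of all records moved to −0.13. At 4-fold, 52 records were higher in growth and 82 were higher at rest. The level in the growth epithelium then split the records into 3 classes. A record was called epithelium-low where the epithelium held a level at least 4-fold below that of the higher papilla, epithelium-high where its level was at least 4-fold above it, and shared in between.

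The 3 classes differed in how their records were distributed between the phases. Of 986 epithelium-low records, 286 (29.0%) were higher in growth and 74 (7.51%) were higher at rest, with a median log2 ratio of 0.51. Of the 18 papilla mesenchyme markers compared, 16 were in this class. Of 97 epithelium-high records, 0 (0.00%) were higher in growth and 44 (45.4%) were higher at rest, with a median of −0.76. The 4874 shared records had 271 (5.56%) higher in growth and 357 (7.32%) higher at rest, with a median of −0.07. Because the class was set against the higher papilla, a record with a large ratio in either direction met the epithelium-low rule more easily, so the class and the ratio are not independent.

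**Figure D1:**
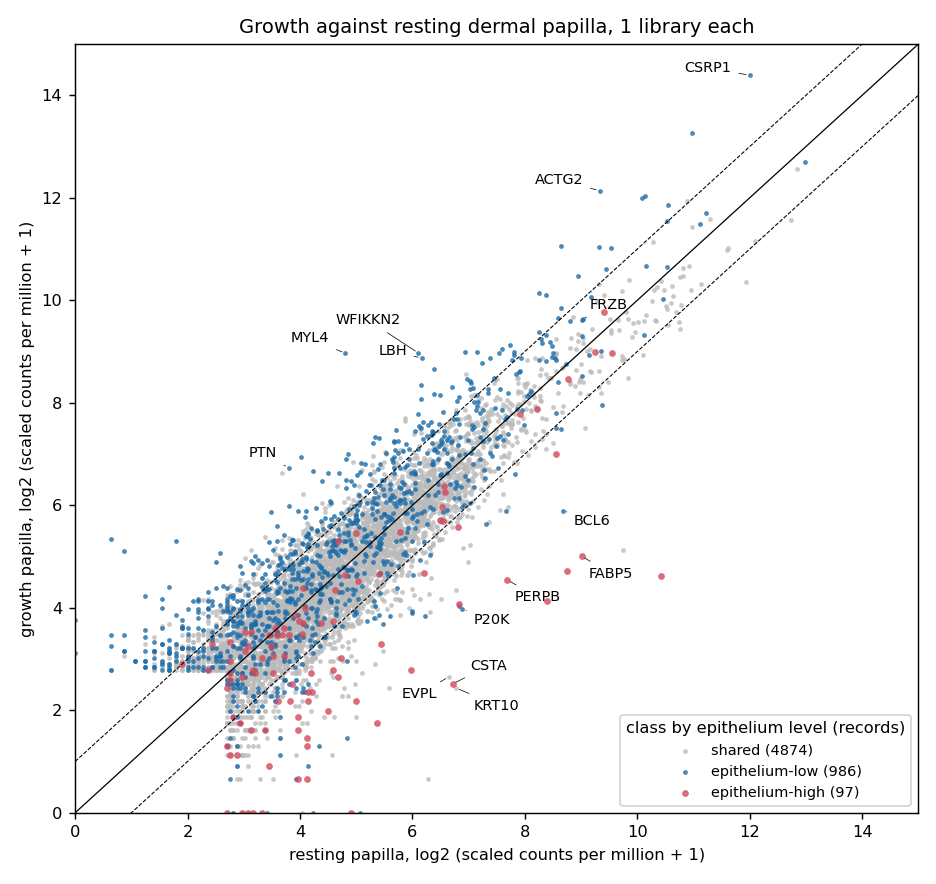
Level of each of the 5957 records in the growth papilla (vertical axis) against the resting papilla (horizontal axis), both as log2(CPM + 1), with 1 library each. Points are coloured by epithelium class, the solid line marks equal levels and the dashed lines mark 2-fold; epithelium-low points lie mostly above the line and epithelium-high points mostly below it, with 0 of 97 epithelium-high records higher in growth by 2-fold.

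**Figure D2:**
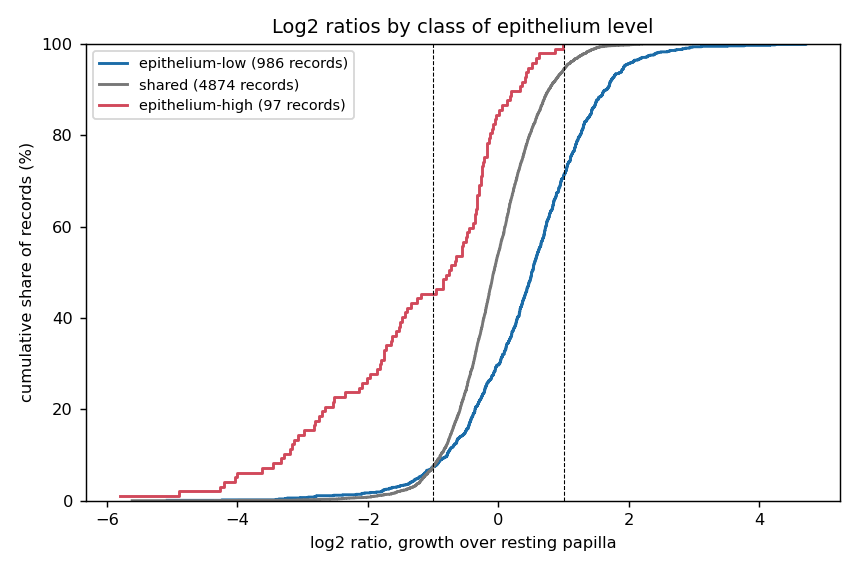
Cumulative share of records by log2 ratio of growth over resting papilla, 1 curve for each epithelium class. The epithelium-low curve lies to the right (median 0.51), the shared curve is near 0 (median −0.07) and the epithelium-high curve lies to the left (median −0.76).

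Of the gene lists, that of the smooth muscle contractile apparatus had the most epithelium-low members higher in growth. Of 25 genes in the smooth muscle list, 18 had a record and 17 were compared; 13 were higher in growth, 0 were higher at rest and 4 lay within 2-fold, with a median log2 ratio of 1.29. All 17 were epithelium-low, a class with 29.0% of records higher in growth and a median of 0.51, and the median over all records was −0.02. The summed level of the list was 50933 CPM in growth and 12670 CPM at rest, with 383 CPM in the epithelium and 1683 CPM in the pulp. The list was therefore highest in the growth papilla, second in the resting papilla and low in the other growth-phase tissues. In bulk RNA, fewer cells of a type and less RNA per cell cannot be told apart.

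CSRP1, which carries LIM domains and binds actin filaments in smooth muscle, had 72939 counts in growth and 14892 at rest, a 5.24-fold difference (5.15 to 5.34). That 1 record took 5.12% of all listed counts in the growth papilla and 1.07% in the resting papilla. MYL9, the regulatory light chain of smooth muscle myosin, had 33336 and 7324 counts (4.87-fold), and TAGLN, the actin-binding protein transgelin, had 13938 and 3960 counts (3.77-fold, 3.64 to 3.91). Both were low in the pulp, at 1867 and 1003 counts. MYLK, the kinase that switches on smooth muscle myosin, had 14303 counts in growth and 4091 at rest, a 3.74-fold difference (3.62 to 3.88). MYH11, the smooth muscle myosin heavy chain, differed less, with 11280 and 8639 counts (1.40-fold, 1.36 to 1.44).

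Actin records are near-identical to one another in their coding parts, so the split of counts among them is uncertain. ACTG2, smooth muscle gamma actin, had 15302 counts in growth and 2336 at rest (7.01-fold, 6.71 to 7.33). ACTA2, smooth muscle alpha actin, had 3823 and 1107 counts (3.70-fold, 3.46 to 3.96), and the skeletal actin ACTA1 had 129 and 36 (3.84-fold, 2.63 to 5.72). All 3 actins were higher in the growth papilla than in any other library. DES, the muscle intermediate filament desmin, had 1162 and 472 counts in the papillae, 0 in the epithelium and 13 in the pulp. The pericyte genes of the same list had similar counts: PDGFRB, the platelet-derived growth factor receptor of vessel-wall cells, had 52 counts in growth and 58 at rest, and RGS5, a G-protein regulator of pericytes, had 145 and 160.

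Markers of vessels, blood and immune cells were read beside these values. The endothelium list had 12 members compared, of which 3 were higher in growth (ESAM, RAMP2 and SOX18) and 0 at rest, its median log2 ratio was 0.57, and its summed level was 517 CPM in growth and 368 CPM at rest. All 12 were epithelium-low, and these values were near the 29.0% and 0.51 of that class. Of the 12, 11 had a log2 ratio above 0. CDH5, an endothelial cadherin, had 215 counts in growth and 117 at rest (1.97-fold, 1.56 to 2.49), and ESAM had 50 and 20. PECAM1, an endothelial adhesion protein, had 435 and 474 counts, and VWF, the endothelial clotting factor, had 171 and 164. All 4 erythroid genes compared were higher in growth, with a median of 1.59 and 199 CPM against 45.1 CPM in sum; HBA1, an alpha globin, had 333 and 43 counts. All 4 erythroid genes were shared records, a class with 5.56% of records higher in growth and a median of −0.07. Haemoglobin records also have close copies. In the leukocyte list 3 of 10 compared genes were higher in growth (BLB2, CTSS and B-MA1), with a median of 0.52. Of these 10 genes, 8 were epithelium-low, and the values were near the 29.0% and 0.51 of that class. The summed level of the list was 461 CPM in growth and 376 CPM at rest, while CD8A and MARCO were listed in neither papilla. Of 11 melanocyte genes with a record, 0 reached 20 counts in either papilla. The part of vessel-wall muscle, blood or immune cells in the contractile difference was not tested.

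**Figure D3:**
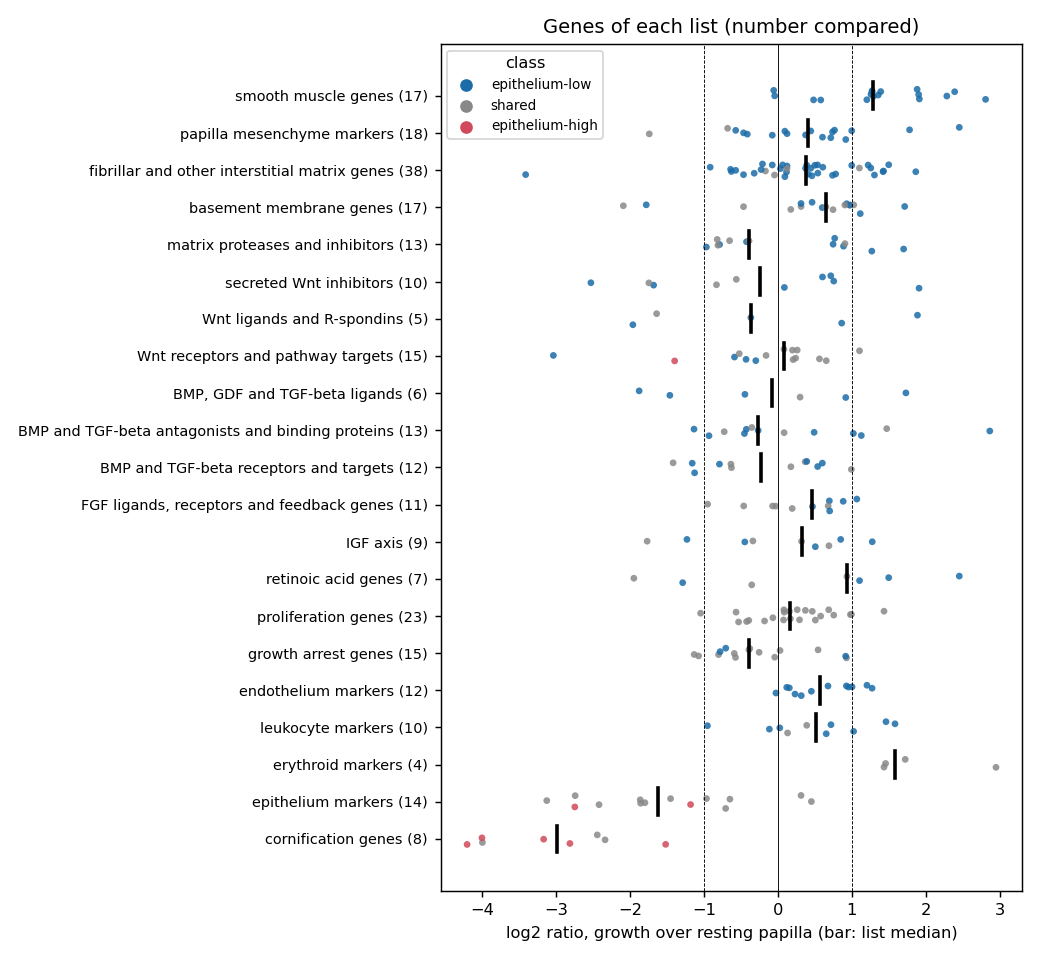
Log2 ratio of growth over resting papilla for every compared member of 21 gene lists, with 1 point per gene coloured by epithelium class and a black bar at the list median; dashed lines mark 2-fold. The smooth muscle list sits furthest to the right among the lists with at least 10 members (median 1.29), and the epithelium and cornification lists sit to the left (medians −1.62 and −2.99).

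Beyond the contractile list, some of the epithelium-low genes with the largest ratios in growth and at least 200 counts are described next. They do not cover every gene of that rank. MYL4, a myosin light chain of atrial and embryonic muscle, had 1695 counts in growth and 98 at rest, an 18.5-fold difference (15.1 to 22.9), with 91 in the pulp and 32 in the epithelium. WFIKKN2, a secreted antagonist of the growth factors myostatin and GDF11, had 1702 and 247 counts (7.38-fold, 6.45 to 8.47) with 7 in the pulp and 4 in the epithelium. LBH, a transcriptional regulator and Wnt target in mammals, had 1586 and 257 counts (6.61-fold, 5.79 to 7.57). FHL2, a LIM-domain cofactor of muscle, had 341 and 65 counts (5.62-fold, 4.30 to 7.44), CRIP2, another LIM-domain protein, had 7217 and 1446 (5.34-fold, 5.05 to 5.66), and PTRF, the coat protein of caveolae, had 1361 and 302 (4.83-fold, 4.26 to 5.48).

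Several others were as high or higher in the pulp. PTN, the heparin-binding growth factor pleiotrophin, had 357 counts in growth and 47 at rest (8.13-fold, 5.99 to 11.3), or 105 CPM and 12.9 CPM, against 319 CPM in the pulp. LBX1 (current symbol LBX2), a homeobox factor, had 213 and 47 counts, or 62.7 CPM and 12.9 CPM, against 128 CPM in the pulp. THRSPA, a thyroid hormone responsive regulator of fat synthesis, had 325 CPM in growth, 70.1 CPM at rest and 391 CPM in the pulp. KCNAB1, a subunit of voltage-gated potassium channels, had 127 CPM in both growth papilla and pulp and 27.8 CPM at rest. Of these, PTN and LBX1 were the most pulp-biased. Among the 286 epithelium-low records higher in growth, 196 had their highest level of the 6 libraries in the growth papilla, 81 were higher in the pulp than in the growth papilla, and in 91 the pulp lay at least 4-fold below the growth papilla. MUSTN1, a small nuclear protein of the musculoskeletal system, had 12660 counts in growth, 5410 at rest and 79 in the pulp (2.51-fold, 2.43 to 2.59), and OSTN, the secreted peptide musclin, had 2265, 1103 and 9 (2.20-fold, 2.05 to 2.37).

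Fewer epithelium-low records were higher at rest than in growth, and some of those with the largest ratios at 200 or more counts follow. BCL6, a transcriptional repressor, had 199 counts in growth and 1489 at rest, a 6.99-fold difference (6.02 to 8.14), with 766 counts on day 2 of regeneration and 559 on day 4. P20K, a lipocalin that binds fatty acids and is named in the tables for quiescence, had 50 and 428 counts (7.99-fold, 5.95 to 10.9) and 2137 on day 2. APOA1, the main protein of high-density lipoprotein, had 52 and 409 counts (7.35-fold), 374 on day 2 and 312 on day 4. P20K was thus higher on day 2 than in either papilla, while BCL6 and APOA1 were highest in the resting papilla.

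CABLES1, a regulator of cyclin-dependent kinases, had 45 counts in growth and 267 at rest (5.54-fold, 4.03 to 7.78). EDIL3, a matrix protein bound by integrins, had 47 and 227 (4.51-fold, 3.28 to 6.31), and C1S, a complement protease, had 49 and 229 (4.36-fold, 3.19 to 6.07). DUSP1, a phosphatase that switches off mitogen-activated kinases, had 165 and 570 counts (3.23-fold, 2.71 to 3.86), and LAMA3, a laminin chain of the epithelial basement membrane, had 198 and 736 (3.47-fold, 2.96 to 4.08). CLU, the extracellular chaperone clusterin, had 838 and 2408 counts (2.68-fold, 2.48 to 2.91), and CTGF, a matrix protein induced by TGF-beta, had 608 and 1456 (2.24-fold, 2.03 to 2.46). Of the 74 epithelium-low records higher at rest, 47 had their highest level in the resting papilla, 14 were higher in the pulp, 16 were higher on day 2 and 15 were higher on day 4.

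**Figure D4:**
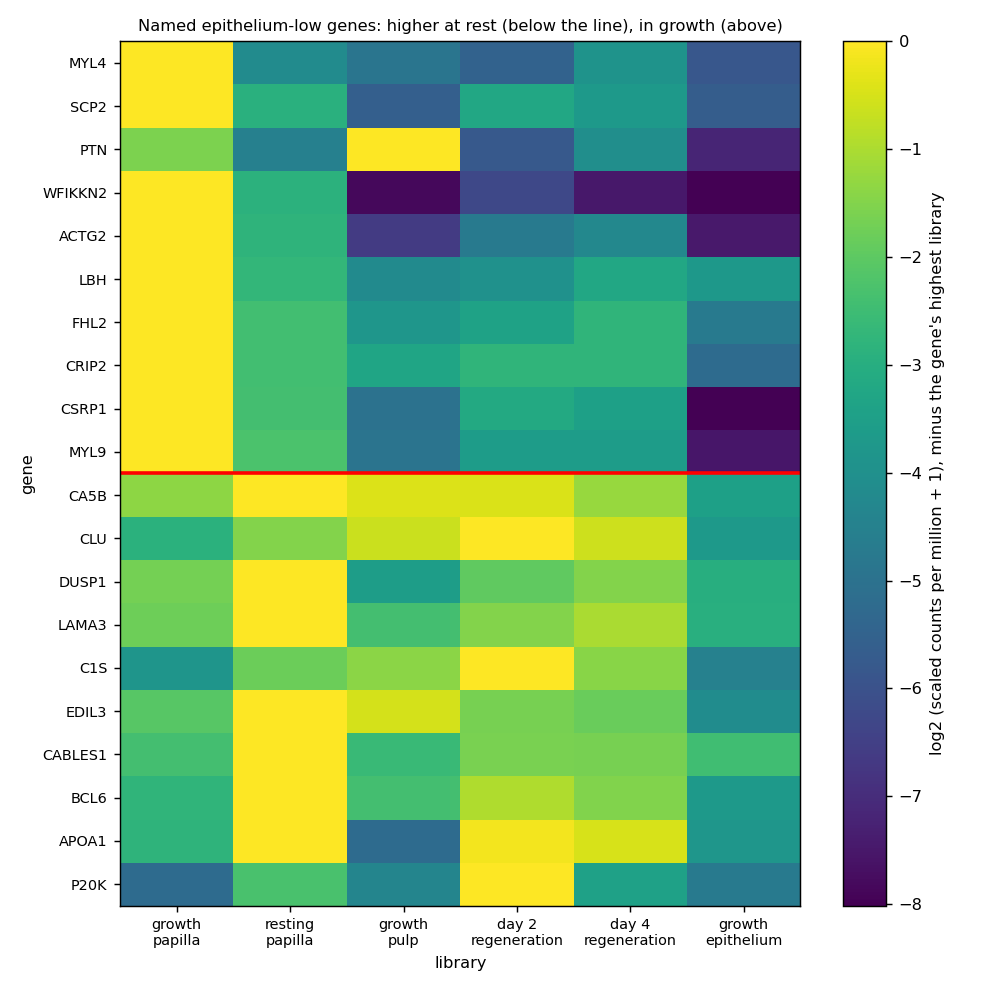
Level of the 10 named epithelium-low genes with the largest ratio in growth (above the red line) and the 10 with the largest ratio at rest (below it) in the 6 libraries, as log2(CPM + 1) minus the highest library of that gene, so that 0 marks each gene's highest library. MYL4, WFIKKN2 and CSRP1 are highest in the growth papilla, PTN in the pulp, BCL6 and APOA1 in the resting papilla, and P20K, CLU and C1S on day 2.

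Secreted Wnt inhibitors keep Wnt proteins from their receptors. Of 22 genes in that list, 10 were compared; 1 was higher in growth, 3 were higher at rest and 6 lay within 2-fold, beside 9.35% and 7.97% of all records. The median log2 ratio was −0.24 and ranged from −0.35 to 0.66 over the alternatives. SFRP1, a secreted frizzled-related inhibitor, had 539 counts in growth and 151 at rest (3.82-fold, 3.19 to 4.61). SFRP4, of the same family, had 4 and 42 (9.81-fold higher at rest, 3.56 to 37.7), WIF1, which binds Wnt proteins, had 14 and 56 (3.74-fold, 2.05 to 7.27), and APCDD1 (Pgo1 in the tables), a membrane inhibitor of Wnt signalling, had 78 and 288 (3.45-fold, 2.68 to 4.49). APCDD1 had 879 counts in the epithelium, whereas SFRP4 had 2 and WIF1 had 5 there.

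DKK2, an inhibitor that acts on Wnt co-receptors, and FRZB, a frizzled-related inhibitor, lay within 2-fold between the phases. DKK2 had 783 counts in growth and 509 at rest, a 1.65-fold difference (1.47 to 1.85), and its level was 230 CPM in growth, 140 CPM at rest, 26.7 CPM in the pulp and 20.8 CPM on day 4. FRZB had 2676 counts in growth and 1884 at rest (1.52-fold, 1.43 to 1.61), or 787 CPM and 518 CPM, with 616 CPM in the pulp. SFRP2 had 324 and 326 counts, and its interval included equality (1.06-fold, 0.91 to 1.24).

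Among Wnt ligands and their R-spondin enhancers, 5 of 23 listed genes were compared, 1 higher in growth and 2 at rest, with a median of −0.36. The counts here and for Wnt receptors and targets below stand beside 9.35% and 7.97% of all records. WNT5A, a ligand of the branch that does not act through beta-catenin, had 28 counts in growth and 101 at rest (3.37-fold, 2.20 to 5.32). It was a shared record, with 39.3 CPM in the epithelium and 88.1 CPM in the pulp against 27.8 CPM at rest. WNT11 had 3 and 23 counts (7.16-fold, 2.16 to 37.2), and RSPO4 ran the other way with 23 and 4 (6.16-fold, 2.10 to 24.5). Both were unlisted in the epithelium and highest in the pulp, at 14.8 CPM and 16.3 CPM. Of 15 compared Wnt receptors and targets, 1 was higher in growth (NKD1) and 2 were higher at rest, with a median of 0.08 (−0.55 to 0.13 over the alternatives). SP5, a transcription factor induced by Wnt and beta-catenin, had 5 counts in growth and 70 at rest (13.1-fold, 5.34 to 41.5), with 9 counts in the epithelium. LEF1, the DNA-binding partner of beta-catenin, had 5 and 20 counts (3.74-fold, 1.36 to 12.7), but 173 in the epithelium and 221 in the pulp.

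Of 6 compared ligands of the BMP and TGF-beta families, 1 was higher in growth (BMP7) and 2 were higher at rest (INHBA and TGFB2). Their median was −0.07 and ranged from −0.19 to 1.32 over the alternatives. Of the 6, 5 were epithelium-low, a class with 29.0% higher in growth and 7.51% at rest. Over all records these shares were 9.35% and 7.97%. BMP7 had 380 counts in growth and 120 at rest (3.39-fold, 2.75 to 4.20). BMP4 had 875 and 494 counts, a 1.90-fold difference (1.70 to 2.12) that fell short of 2-fold. INHBA, the subunit of activin A, had 23 and 100 counts (4.06-fold higher at rest, 2.56 to 6.70), and TGFB2 had 42 and 130 (2.89-fold, 2.03 to 4.20). INHBA was unlisted in the epithelium and had 204 counts in the pulp.

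Of 13 compared antagonists and binding proteins, 4 were higher in growth (WFIKKN2, NBL1, LTBP1 and FSTL5) and 1 at rest (CRIM1). Their median was −0.27 and ranged from −0.39 to 1.13 over the alternatives. Of the 13, 9 were epithelium-low, a class with 29.0% higher in growth and 7.51% at rest. Over all records these shares were 9.35% and 7.97%. NBL1, a BMP antagonist of the DAN family, had 431 and 164 counts (2.81-fold, 2.35 to 3.39), and LTBP1, which stores latent TGF-beta in the matrix, had 1654 and 808 (2.19-fold, 2.01 to 2.39). The BMP antagonist NOG had 23 counts in growth and 35 at rest, within 2-fold. Of 12 compared receptors and targets, 6 were epithelium-low. Among the 12, 0 were higher in growth and 3 were higher at rest, with a median of −0.22 (−0.63 to 0.08 over the alternatives). These were MSX2, a homeobox target of BMP, with 28 and 86 counts and 253 in the epithelium, TGFBR1, a TGF-beta receptor, with 26 and 65, and CTGF as above.

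Growth factor and retinoic acid lists were small, and their counts stand beside 17.3% of all records past 2-fold in either direction. By direction, these were 9.35% in growth and 7.97% at rest. Among epithelium-low records the shares were 29.0% and 7.51%, with a median of 0.51. In the FGF, insulin-like growth factor and retinoic acid lists, 5 of 11, 5 of 9 and 4 of 7 compared genes were epithelium-low. In the FGF list, with a median of 0.47 (−0.27 to 0.52 over the alternatives), 1 of 11 compared genes was higher in growth and 0 at rest. It was SPRED1, an inhibitor of the downstream kinase cascade, with 178 and 89 counts (2.14-fold, 1.65 to 2.79). FGF7, a mesenchymal ligand for epithelial receptors, had 46 and 29 counts, and the receptor FGFR2 had 144 and 301 (1.95-fold higher at rest). In the insulin-like growth factor list 1 of 9 compared genes was higher in growth and 2 at rest, with a median of 0.32. IGFBP5, which binds insulin-like growth factors, had 765 and 336 counts (2.44-fold, 2.14 to 2.78), whereas the ligand IGF1 had 14 and 40 (2.67-fold higher at rest, 1.42 to 5.31). Of 7 compared retinoic acid genes, 3 were higher in growth and 2 at rest, with a median of 0.93. CRABP1, which binds retinoic acid in the cytoplasm, had 51 and 7 counts (7.80-fold, 3.53 to 20.4) against 8993 in the pulp, and the synthesis enzymes ALDH1A1 and ALDH1A3 had 16 and 47 and 5 and 31 counts (2.74-fold and 5.79-fold higher at rest).

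Of 38 compared interstitial matrix genes, 34 were epithelium-low; 8 were higher in growth, 1 was higher at rest and 29 lay within 2-fold, with a median log2 ratio of 0.38. Both values were below those of all epithelium-low records, of which 29.0% were higher in growth, with a median of 0.51. BGN, the proteoglycan biglycan, had 629 and 248 counts (2.72-fold, 2.34 to 3.16), and LOXL1, which crosslinks elastin, had 513 and 192 (2.86-fold, 2.42 to 3.39). SPP1, the bone and wound matrix protein osteopontin, was unlisted in growth and had 35 counts at rest, at least 10.9-fold higher, with 273 counts on day 2. COL1A2, a single chain of type I collagen, differed 1.30-fold (1.26 to 1.34) and lay within 2-fold.

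Of 17 compared basement membrane genes, 8 of them epithelium-low, 3 were higher in growth and 2 at rest, with a median of 0.65, beside 9.35% and 7.97% of all records. COL4A1, a chain of the type IV collagen network, had 7129 counts in growth and 2323 at rest (3.29-fold, 3.14 to 3.45), NID2, a linker of that network, had 651 and 320 (2.18-fold, 1.90 to 2.50), and LAMC1, a laminin chain, had 443 and 231 (2.05-fold, 1.75 to 2.42). The 2 genes higher at rest were LAMA3 and COL17A1, a hemidesmosome collagen of basal keratinocytes, with 98 and 458 counts (4.36-fold, 3.50 to 5.49). COL17A1 had 134 counts in the epithelium library and 595 on day 2.

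Of 23 compared proliferation genes, 1 was higher in growth (KIF23), 1 was higher at rest (NCAPG) and 21 lay within 2-fold, beside 17.3% of all records past 2-fold in either direction. The median of 0.17 ranged from −0.39 to 0.27 over the alternatives. MKI67, the marker of cycling cells, had 67 counts in growth and 41 at rest (1.75-fold, 1.17 to 2.65), and TOP2A, the topoisomerase of dividing cells, had 53 and 43 with an interval that included equality (1.32-fold, 0.87 to 2.02). Of 15 compared growth arrest genes, 0 were higher in growth and 2 were higher at rest, with a median of −0.39. They were KLF4, a factor of epithelial arrest, with 124 and 295 counts and GAS2, a growth arrest gene, with 8 and 22. KLF4 had 611 counts in the epithelium. Of 16 compared immediate early and stress genes, 1 was higher in growth, 2 were higher at rest (FOS and DUSP1) and 13 lay within 2-fold. Their median was 0.23, on the side of growth, and all records had 9.35% higher in growth and 7.97% at rest. FOS had 501 and 1321 counts (2.46-fold higher at rest, 2.22 to 2.73). CEBPB, a factor of inflammation and differentiation, had 200 and 678 (3.17-fold, 2.70 to 3.73).

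Of 22 compared hypoxia and glycolysis genes, 3 were higher in growth and 2 at rest, beside 9.35% and 7.97% of all records, with a median of 0.16. GAPDH, a glycolytic enzyme, had 13346 and 6871 counts (2.08-fold, 2.02 to 2.14), and TPI1, another, had 418 and 139 (3.22-fold, 2.65 to 3.93). ADM, the vasodilator peptide adrenomedullin, had 63 and 153 counts (2.27-fold higher at rest, 1.68 to 3.09). Of 35 compared oxidative phosphorylation genes, 3 were higher in growth (NDUFB10, NDUFAB1 and COX5A) and 0 at rest, with a median of 0.32. In the housekeeping list 1 of 12 was higher in growth (GAPDH) and 2 at rest (YWHAZ and GUSB), with a median of 0.03, close to that of all records.

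Among developmental transcription factors of the homeobox, T-box, SOX and forkhead families, 2 of 15 were higher in growth and 2 at rest, with a median of −0.33. The counts of each list in this paragraph stand beside 9.35% of all records higher in growth and 7.97% higher at rest. Among epithelium-low records these shares were 29.0% and 7.51%. FOXF1, a forkhead factor of visceral and vascular mesenchyme, had 56 counts in growth, 25 at rest and 0 in the epithelium (2.40-fold, 1.47 to 4.01), and DLX5, a homeobox factor of ectoderm and bone, had 33, 77 and 131 (2.18-fold higher at rest, 1.43 to 3.38). Of 8 compared solute carriers and channels, 4 were higher in growth and 1 at rest, with a median of 0.74 that ranged from −0.14 to 0.83 over the alternatives. They included KCNJ2, an inward-rectifier potassium channel, with 38 and 7 counts (5.81-fold, 2.56 to 15.4), and KCNMB1, the smooth muscle subunit of a calcium-activated potassium channel, with 618 and 256 (2.58-fold). Of the interferon induced genes, 1 of 11 was higher in growth, OASL, an antiviral protein, with 69 and 8 counts and 2592 in the pulp. The fat-cell hormone ADIPOQ had 1598 counts in growth and 605 at rest (2.83-fold, 2.57 to 3.11), whereas 4 of 14 adipocyte genes were compared, 1 higher in growth and 2 at rest.

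Of the epithelium-high records, 44 of 97 (45.4%) were higher at rest, beside 7.97% of all records. Most of these 44 had fewer than 20 counts in growth and were kept through their resting count alone, which raises this share. CSTA, a cystatin of the cornified envelope, had 16 counts in growth, 378 at rest and 39954 in the epithelium, a 22.1-fold difference between papillae (13.4 to 39.0). FABP5, the fatty acid-binding protein of keratinocytes, had 106, 1869 and 46133 counts (16.5-fold, 13.5 to 20.2), and EPCAM (TACSTD1 in the tables), an epithelial adhesion protein, had 54, 408 and 2227 (7.06-fold, 5.30 to 9.55). By the class rule all 3 genes were at least 4-fold below the epithelium in both papillae. As records higher at rest, they were by the same token closer to it in the resting one. Of 14 compared epithelium markers 0 were higher in growth and 9 were higher at rest, with a median of −1.62. Of 8 compared cornification genes 0 were higher in growth and 8 at rest, with a median of −2.99.

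The papilla levels of genes in the epithelium and cornification lists were also expressed as a share of the level in the growth epithelium. Which cells made these transcripts in the papilla libraries was not tested. Over 25 genes of both lists with a level in the epithelium, the median was 5.86% in the growth papilla and 32.5% in the resting papilla, and 22 of the 25 were higher at rest. The 9 cornification genes had medians of 0.444% and 5.92%, and the 16 other markers 11.3% and 47.2%. The share differed from gene to gene. CSTA stood at 0.0491% and 1.08%, CDH1, the epithelial cadherin, at 11.6% and 32.5%, and KRT6A, a keratin of wounded and outer-root-sheath epithelium in mammals, at 54.3% and 287%. Keratin records have near-identical copies, and the split among them is uncertain. The exceptions were LAMA5, at 161% in growth and 129% at rest, and KRT14, a basal keratin, at 129% and 93.9%, while SHH, the ligand of the feather epithelium, was unlisted in both papillae.

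**Figure D5:**
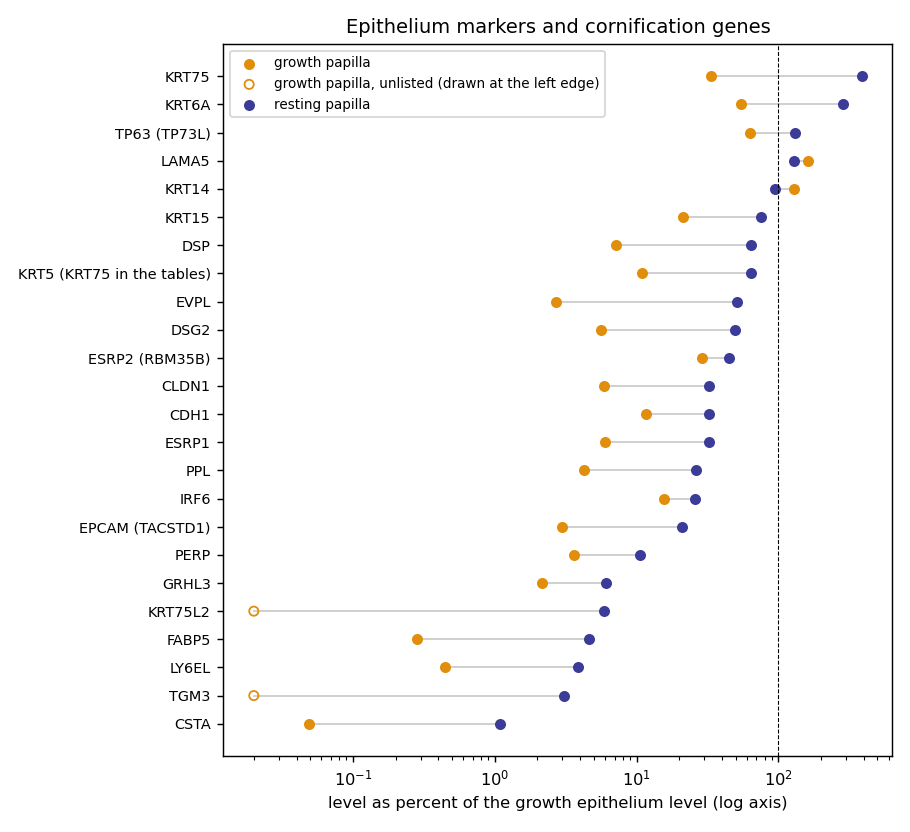
Level of epithelium markers and cornification genes in the growth papilla (orange) and the resting papilla (blue) as a percent of the level in the growth epithelium, on a log axis. The 24 genes listed in either papilla are drawn, and 22 of them have a higher share at rest; open circles at the left edge mark genes unlisted in growth.

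Shared records higher at rest were set against the level of the growth epithelium. In 104 of the 357 the difference between papillae was above the epithelium level, and its median was 61.9% of that level. The shared rule and the 2-fold call together limit the range of this ratio. No such share was taken for records higher in growth, so none stands beside it. In the other classes the rule itself fixes whether the difference exceeds the epithelium level. EVPL, an envoplakin of the cornified envelope, with 18 and 361 counts and 814 in the epithelium, and CLDN1, a tight junction protein, with 66 and 393 counts and 1383 in the epithelium, were among the shared records. The shared class therefore held known epithelial genes as well as genes such as FOS and CEBPB. Resting-phase epithelium was not analysed here, and its part in the records higher at rest was not tested.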

How the data were processed

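RNA of 6 feather follicle samples, 1 library for each group named in the labels, was sequenced by Illumina protocols, per the labels. The authors deposited 1 table per library: per the file headers it holds gene expression as a whole count for each RefSeq record, none under 2, and a column headed TPM. The deposited TPM column was in fact RPM, the count over a library total with no division by length, and records of 500 or more counts were used to recover that total. The submitters' processing notes name mm10, a mouse genome build, for these chicken records. The sources used here do not state aligner, counter or strand. TMM factors on those totals (0.997 in growth, 1.09 at rest) came from edgeR 4.0.16 in R 4.3.3; the rest used Python 3.11.15 with scipy 1.17.1. Of all records, 4823 were named by the tables, 5006 by gene identifier and 10 by accession in a RefSeq gene table, and 1125 had no name. For genes with several records, lists used the record with most counts; the tables' KRT75 and a second keratin record stand for KRT5 and KRT75, separate genes in the RefSeq table. Named were the 15 highest and 15 lowest epithelium-low ratios and the 6 at each end of the other classes at 200 or more counts, up to 4 members of each of 37 lists, and 20 chosen genes; other genes printed (such as LUM, MYLK, DES, LAMC1 and NOG) were chosen after their values were seen. Members and lists were chosen with earlier results of these data known. 1 gene that the naming rule picked is not reported here. Recovery of records given a known ratio and coverage of the intervals were checked on simulated counts with counting error only. The scaling, the epithelium classes, the gene lists and the spread between birds were not simulated.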

Additional observations from a re-analysis of the deposited data

How the results depend on the processing

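The counts of higher records moved by over 1.5 times with several choices, given here as higher in growth and higher at rest. A pseudocount of 5 gave 306 and 246 over all records and 141 and 26 among epithelium-low records. Without the filter on low counts there were 899 and 798, and 5 and 75 among epithelium-high records. At 200 or more counts there were 165 and 100, with 110 and 15 epithelium-low and 11 epithelium-high records higher at rest. At 4-fold there were 52 and 82, with 42 and 17 epithelium-low and 26 epithelium-high records higher at rest. Library totals alone gave 125 epithelium-low records higher at rest. Median-of-ratios scaling and a pseudocount of 0.1 each gave 1 epithelium-high record higher in growth. A class boundary of 2-fold gave 133 epithelium-low records higher at rest, and 10 and 98 epithelium-high records. Setting the class by epithelium against pulp gave 185 and 35 epithelium-low and 13 and 113 epithelium-high records. The balance between growth and rest over all records turned at 4-fold and with library totals alone (441 and 627). The 46 other values of these counts moved by less than 1.5 times. Of 129 named genes past 2-fold, 103 kept 2-fold with a pseudocount of 5 and 122 with library totals alone. All kept their direction in each alternative that kept the gene (79 at 200 or more counts). The genes were taken at 2-fold and the scalings moved ratios by far less, so a change of direction could hardly occur. The median of the smooth muscle list ranged from 1.17 to 1.37 and that of the cornification list from −3.99 to −2.09. Of 36 lists with a median, 14 had one that changed sign over the alternatives, such as the BMP antagonists (−0.39 to 1.13). Scaling without the 100 most abundant records, an alternative added after seeing the data, gave 554 and 476. No paired analysis was possible because each group had 1 library. At this depth, records with few counts have wide intervals, and the spread between birds was not measured.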

Other observations

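Records at least 4-fold above all 5 other libraries were sought in each papilla, a set chosen after the values were seen. There were 14 in the growth papilla and 4 in the resting papilla, which by this rule are also epithelium-low. The 14 included the contractile and muscle-type genes MYL4, ACTG2, CSRP1, MYL9, ACTC1 and MYH6, and also WFIKKN2, LBH, FHL2, CRIP2 and PTRF, among others. ACTC1, cardiac alpha actin, had 135 counts in growth, 2 at rest and 18 in the pulp. MYH6 (current symbol MYH15), a myosin heavy chain, had 162, 40 and 16. Close copies make the split among actin and among myosin records uncertain.

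The 4 records peaking in the resting papilla were the Wnt target SP5, ADGRG2, an adhesion receptor coupled to G proteins, HAPLN1, a linker of hyaluronan and proteoglycans, and LOC770952, named in the tables as similar to feather keratin. ADGRG2 had 6 counts in growth, 100 at rest and at most 8 in each other library. HAPLN1 had 2 and 21 counts. LOC770952 was unlisted in growth and had 119 counts at rest and 25 in the epithelium, and feather keratins are a family of near-identical genes.

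Some further genes were named after their values were seen. PNOC, the precursor of nociceptin, was unlisted in growth and had 65 counts at rest and 33 on day 4, and NTS, the precursor of neurotensin, had 3 and 61 counts. POMC, the precursor of melanocortins, ran the other way with 43 counts in growth, none listed at rest and 654 in the pulp. PDK4, a kinase that shifts cells from glucose to fat use, had 2 counts in growth and 52 at rest.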
